A study of Mus musculus with 6 samples.

Results

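The genes of phosphatidylcholine and phosphatidylethanolamine synthesis described here are Pemt, Chka, Chkb, Pcyt1a, Pcyt2, Cept1, Chpt1, Etnk1, Etnk2 and Lpcat3. They were taken by gene symbol from the deposited expression table, where all 10 were found among 16123 listed genes. The study measured liver RNA from 6 libraries, 3 of them from running-trained mice and 3 from control mice labelled as having had no treadmill training. The design text describes healthy adult mice, 3 per group, and names no strain or sex; the libraries are called exercise and sedentary here. Training lasted 6 weeks, the distance given per trained mouse is 22 km, and these livers were taken 24 h after the last session. The labels describe perfusion with saline, and they name no genetic change and no further agent in either group.

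Phosphatidylcholine and phosphatidylethanolamine are the main phospholipids of liver membranes. Each is built by a kinase, a cytidylyl transferase and a transferase that joins the CDP-activated head group to diacylglycerol, a route known as the Kennedy pathway. The liver has a further route, in which Pemt methylates phosphatidylethanolamine to phosphatidylcholine. Phosphatidylcholine is used there for the surface of lipoproteins and for bile.

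Library totals were between 17941303 and 18371949 counts. Counting noise alone gives a chi-square of 1 per gene between a pair of libraries. For genes whose reads summed to 20 or more and under 2000 over the pair, the chi-square averaged 1.13 to 1.21 in pairs of 1 group and 4.23 to 4.36 in pairs across groups. From 2000 reads upward, with no upper limit, it averaged 2.62 to 3.46 in pairs of 1 group and 152 to 171 across groups. These are means over all genes in that range, where most of the 10 genes lie, and not values of the 10 genes. The design text gives 3 mice per group, but the sample labels do not tie each library to a mouse of its own, so p-values measure only the spread between these libraries, which may be technical. Albumin, which marks hepatocytes, was at 46244 ± 842 FPKM in sedentary livers and 46012 ± 423 FPKM in exercise livers (SD, n = 3), and was called lower in exercise by TMM-scaled counts (log2 fold change −0.08, edgeR adjusted p = 7.93e-06).

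Cept1, Chpt1, Chkb, Pemt and Etnk1 were called higher in exercise and Etnk2 lower, while Chka, Pcyt1a, Pcyt2 and Lpcat3 were not called. That is 5 genes higher and 1 lower of the 10, by edgeR's quasi-likelihood test with Benjamini-Hochberg adjustment at 0.05 over the 10266 genes whose FPKM (fragments per kilobase of transcript, scaled to library size) averaged 1 or more. Over all these genes 38.1% were called, 19.1% higher and 19.0% lower. In bulk samples, fewer cells of a type and less RNA per cell cannot be told apart. The median log2 fold change (exercise minus sedentary) of the 10 genes was 0.064 and their median absolute change 0.109, beside −0.000622 and 0.121 over all tested genes.

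A test against a change of 1.2-fold called 1 of the 10 genes, Cept1, beside 653 of all tested genes, or 6.36%. With 1 summed library per group and a biological coefficient of variation assumed to be 0.1, the calls were 0 of the 10 and 176 of all tested genes. Directions across all genes depended on the scaling, with 1961 higher and 1952 lower by TMM (a scaling of the libraries by trimmed means), 3537 and 1203 with library totals only, and 3542 and 881 by limma on log2(TPM + 1), where the median of all genes was 0.0956.

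Per kilobase of transcript, the levels of the 10 genes spanned an 18.9-fold range in sedentary livers. Pemt was the most abundant at 254 ± 2.86 FPKM and Etnk1 the least at 13.5 ± 0.107 FPKM (SD, n = 3). From high to low the order was Pemt, Pcyt2, Etnk2, Chpt1, Lpcat3, Chkb, Cept1, Chka, Pcyt1a and Etnk1. Of these neighbours in the order, the sedentary ranges of Chkb and Cept1 overlapped, and the other neighbouring ranges were separate. In exercise livers Cept1 stood above Chkb, with no overlap between any neighbouring genes, and the rest of the order was the same. Within a group, the coefficient of variation of a gene's FPKM was between 0.607% and 5.88%.

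**Figure D1:**
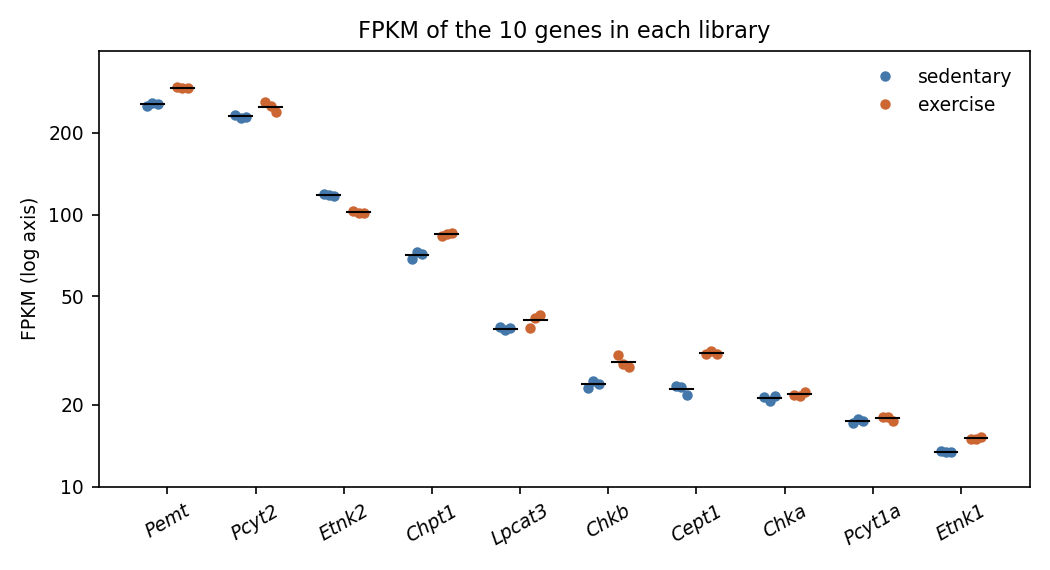
FPKM on a log axis for the 10 genes in each of the 6 libraries, ordered by the sedentary mean. Each point is a library, and the black bars are group means. Exercise points of Cept1, Chpt1, Chkb, Pemt, Etnk1 and Pcyt2 sit above all sedentary points, and those of Etnk2 sit below.

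The first step of the pathway is the phosphorylation of choline or ethanolamine. Chka and Chkb encode choline kinases, which also accept ethanolamine, and Etnk1 and Etnk2 encode ethanolamine kinases. Among the kinases, Chkb and Etnk1 rose, Etnk2 fell and Chka was not called.

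Etnk2 (gene ID 214253, chromosome 1, 133363463 to 133380318 in GRCm38.p6) had FPKM values of 119.15, 118.37 and 116.9 in the sedentary libraries and 102.94, 101.5 and 101.06 in the exercise libraries. Every exercise library lay below every sedentary one. It fell 1.22-fold by TMM-scaled counts (log2 fold change −0.29, SE 0.026, edgeR adjusted p = 3.65e-13). In 6 other scalings and units the fall kept its sign and its call, at log2 fold changes of −0.29 to −0.18. These were library totals only, totals without the 20 most abundant genes, median-of-ratios scaling, DESeq2, and limma on log2(FPKM + 1) and on log2(TPM + 1).

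Etnk1 (gene ID 75320, chromosome 6, 143166866 to 143208546) moved the other way, at lower levels. Its FPKM was 13.57, 13.36 and 13.43 in sedentary and 14.97, 14.97 and 15.17 in exercise libraries, without overlap. In TMM-scaled counts it rose by 0.084 on the log2 scale (SE 0.034, edgeR adjusted p = 0.0446). This call was near the threshold: leaving out a library ended it in all 6 cases, with adjusted p between 0.0515 and 0.117, and so did DESeq2 (adjusted p = 0.16) and a filter at a mean FPKM of 5 (adjusted p = 0.0543).

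Chkb (gene ID 12651, chromosome 15, 89426349 to 89429927) had 608, 640 and 627 reads in sedentary and 792, 728 and 721 in exercise libraries. In FPKM this was 23, 24.39 and 23.86 against 30.39, 28.15 and 27.61. Exercise libraries were all higher, and exercise replicate 1 was the highest. The log2 fold change was 0.20 (SE 0.048, edgeR adjusted p = 0.000775), or 0.16 to 0.225 with any 1 library left out. In the GENCODE M21 annotation, 50.7% of the exon bases of Chkb also belong to the gene Gm44502 on the same strand, which was not analysed here, and reads in the shared bases cannot be told apart.

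Chka (gene ID 12660, chromosome 19, 3851585 to 3894369) showed overlapping groups, with FPKM values of 21.27, 20.72 and 21.54 in the sedentary and 21.66, 21.52 and 22.36 in the exercise libraries. The log2 fold change was −0.0023 (SE 0.041, edgeR adjusted p = 0.972). Its sign turned with the scaling, to 0.075 with library totals only, and it was not called in any of 18 alternatives.

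The second step, making CDP-choline or CDP-ethanolamine, is catalysed by the products of Pcyt1a and Pcyt2. Pcyt1a encodes the enzyme usually taken as rate-limiting for phosphatidylcholine, and neither of the genes was called. Pcyt1a (gene ID 13026, chromosome 16, 32430921 to 32475065) had FPKM values of 17.08, 17.78 and 17.36 in the sedentary and 17.97, 18.09 and 17.49 in the exercise libraries. These ranges overlapped. The log2 fold change was −0.039 (SE 0.035, edgeR adjusted p = 0.4), and 0.038 with library totals only.

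Pcyt2 (gene ID 68671, chromosome 11, 120610062 to 120617947) was far more abundant, with FPKM values of 233.03, 227.04 and 228.43 in the sedentary and 258.52, 251.23 and 237.53 in the exercise libraries. The FPKM groups did not overlap, and exercise replicate 3 was the nearest to the sedentary libraries. In TMM-scaled counts the log2 fold change was 0.045 (SE 0.025, edgeR adjusted p = 0.153). Pcyt2 passed without exercise replicate 3 (log2 fold change 0.075, adjusted p = 0.0175), with library totals only (0.12, adjusted p = 5.8e-05), with totals that left out the 20 most abundant genes (0.080, adjusted p = 0.00798) and by limma on log2(TPM + 1) (0.15, adjusted p = 0.0249).

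The last step joins the activated head group to diacylglycerol. Chpt1 encodes a transferase for choline and Cept1 a transferase that takes choline or ethanolamine, and both rose. Cept1 (gene ID 99712, chromosome 3, 106502260 to 106547802) had the largest rise of the 10 genes. It had 994, 974 and 927 reads in sedentary and 1343, 1302 and 1318 in exercise libraries, or 23.42, 23.18 and 21.71 against 30.77, 31.42 and 30.61 FPKM. The groups were far apart next to the spread within each. The gene rose 1.32-fold (log2 fold change 0.40, SE 0.039, edgeR adjusted p = 5.81e-12), and 331 of the 10266 tested genes had a higher log2 fold change. Of its annotated exon bases, 24.7% lie opposite exons of Dennd2d, which averaged 2.93 FPKM in sedentary and 3.17 FPKM in exercise livers.

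Chpt1 (gene ID 212862, chromosome 10, 88469513 to 88503970) had FPKM values of 68.93, 72.92 and 71.45 in the sedentary and 83.41, 85.02 and 85.59 in the exercise libraries. All exercise values were higher. It rose 1.16-fold by TMM-scaled counts (log2 fold change 0.22, SE 0.031, edgeR adjusted p = 1.1e-07). Rises of Cept1 and Chpt1 were called in all 6 other scalings and units, at 0.40 to 0.47 and 0.22 to 0.29.

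**Figure D2:**
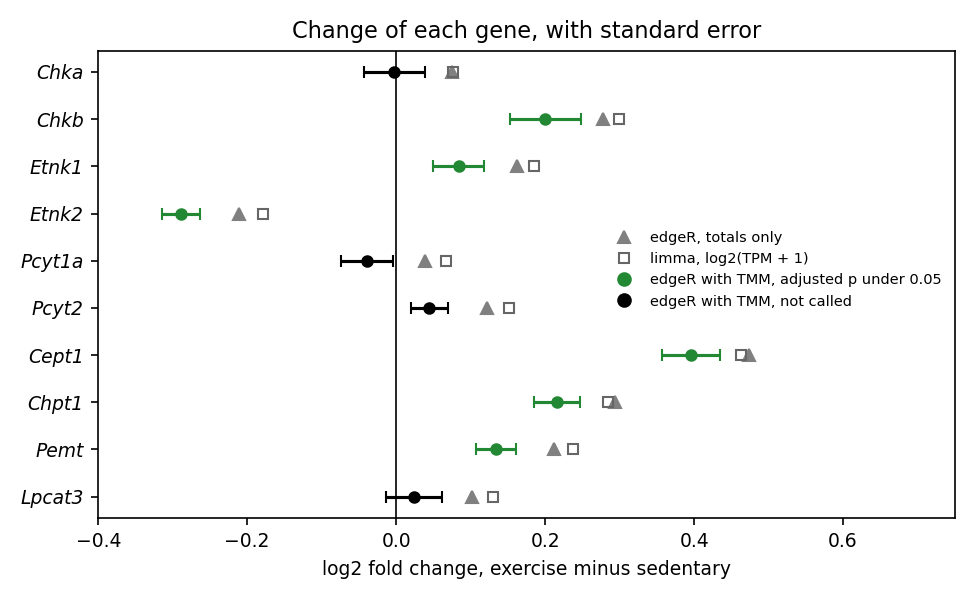
Log2 fold change of each gene, exercise minus sedentary, ordered by step from the kinases to Lpcat3. Circles are edgeR with TMM scaling, green where called and black where not, with bars of 1 standard error; triangles are edgeR with library totals only and squares limma on log2(TPM + 1). Cept1 lies farthest right at 0.40 and, of these 10 genes, Etnk2 alone is left of 0 in all 3 fits.

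Promoter windows are shown for Cept1, Chpt1 and Chkb, which had the largest rises, and for Etnk2, which fell. These windows were picked by the changes of their genes. Each is a RefSeq window of 300 bases in GRCm38.p6, from 250 before to 50 after an annotated start, 5′ to 3′ on the strand of the gene. Capitals mark CCAAT, the core bound by NF-Y, and GGGCGG, the core bound by Sp factors, on either strand. The windows are chr3:106547753-106548052 on the minus strand for Cept1, chr10:88503921-88504220 on the minus strand for Chpt1, chr15:89429878-89430177 on the minus strand for Chkb and chr1:133363322-133363621 on the plus strand for Etnk2.
Cept1: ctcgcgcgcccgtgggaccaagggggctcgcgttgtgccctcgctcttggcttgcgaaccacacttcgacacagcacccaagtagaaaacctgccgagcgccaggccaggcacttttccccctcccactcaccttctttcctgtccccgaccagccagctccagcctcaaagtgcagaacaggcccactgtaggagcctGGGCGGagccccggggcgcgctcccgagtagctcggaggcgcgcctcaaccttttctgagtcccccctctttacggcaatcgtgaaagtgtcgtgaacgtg
Chpt1: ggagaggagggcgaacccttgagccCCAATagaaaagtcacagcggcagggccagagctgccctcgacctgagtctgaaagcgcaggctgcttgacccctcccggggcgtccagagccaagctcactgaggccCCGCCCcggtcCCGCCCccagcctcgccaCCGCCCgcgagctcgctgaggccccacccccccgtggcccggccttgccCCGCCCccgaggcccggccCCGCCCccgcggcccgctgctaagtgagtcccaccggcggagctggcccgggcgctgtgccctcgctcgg
Chkb: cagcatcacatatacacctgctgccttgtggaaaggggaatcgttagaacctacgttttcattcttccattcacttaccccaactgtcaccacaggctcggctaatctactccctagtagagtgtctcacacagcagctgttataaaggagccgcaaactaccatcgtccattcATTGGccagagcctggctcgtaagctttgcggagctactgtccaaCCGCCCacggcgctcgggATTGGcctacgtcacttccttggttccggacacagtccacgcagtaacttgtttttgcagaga
Etnk2: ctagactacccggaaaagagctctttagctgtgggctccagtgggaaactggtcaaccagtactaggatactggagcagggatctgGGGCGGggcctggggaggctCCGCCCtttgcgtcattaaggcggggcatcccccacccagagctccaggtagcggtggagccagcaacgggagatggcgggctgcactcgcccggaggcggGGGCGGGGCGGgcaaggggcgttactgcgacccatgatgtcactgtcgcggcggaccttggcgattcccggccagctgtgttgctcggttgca

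Cept1 had 1 GGGCGG match in this window and no CCAAT match. RefSeq gives 3 windows for Cept1, of which that at the outermost start is shown; of the others, 1 had 3 GGGCGG and 0 CCAAT matches, and the other had 0 and 1. In the single window of each of the other genes shown, Chpt1 had 5 and 1, Chkb had 1 and 2, and Etnk2 had 4 and 0. Etnk2 had 1 pair of overlapping matches. Of the genes not called, Lpcat3 had 6 and 4 and Chka 3 and 2. The windows of Pcyt1a, also not called, had 2, 2 and 0 GGGCGG matches and no CCAAT match. Etnk1, called higher, had 3 and 0. Pemt, also called higher, had no GGGCGG match, and 1 of its windows had 1 CCAAT match. Over 32851 windows of this length, 35.7% held GGGCGG and 37.4% held CCAAT. RefSeq windows were at hand for 9 of the 10 genes, 14 in all. These are not 14 separate stretches: in Cept1 and in Pcyt1a, 2 overlapping windows share GGGCGG matches. Of the 14 windows, 10 held GGGCGG and 6 held CCAAT. None of the 14 windows held CACGTG or TGACGTCA, which occurred in 7.15% and 1.79% of all windows. These matches describe letters and do not show that a factor binds there.

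At its 5′ end Cept1 shares 5 annotated exon bases with Dram2 on the other strand. Dram2, looked up after the values of Cept1 were seen, went from 20.6 to 24.8 FPKM and rose as well (log2 fold change 0.19, edgeR adjusted p = 0.00033). The table does not say whether counting used strand.

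Pemt, the methyltransferase of the second route to phosphatidylcholine, rose. Pemt (gene ID 18618, chromosome 11, 59970614 to 60046561) had FPKM values of 250.81, 256.38 and 254.75 in the sedentary and 294.24, 290.69 and 292.55 in the exercise libraries. The spread within a group was small next to the gap. It rose by 0.13 on the log2 scale of TMM-scaled counts (SE 0.027, edgeR adjusted p = 6.23e-05), or 9.75%, where the mean FPKM was 15.2% higher. Across the other scalings and units the log2 fold change was 0.14 to 0.24, called in all 6.

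Lpcat3 (gene ID 14792, chromosome 6, 124663094 to 124704716) encodes the acyltransferase that puts polyunsaturated fatty acids into lysophosphatidylcholine. Its FPKM was 38.49, 37.52 and 38.32 in the sedentary and 38.14, 41.55 and 42.77 in the exercise libraries. Exercise replicate 1 lay within the sedentary range and the other two above it. The log2 fold change was 0.024 (SE 0.037, edgeR adjusted p = 0.648), and −0.013 without exercise replicate 3. It passed with library totals only (log2 fold change 0.10, adjusted p = 0.0217). In GENCODE M21, 10.2% of its exon bases lie opposite Emg1, which averaged 41.3 FPKM in sedentary and 43.6 FPKM in exercise livers.

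FPKM ranges of the 2 groups did not overlap for 7 of the 10 genes, 6 with exercise above and 1 with exercise below. Over all tested genes this held for 51.0%, with 36.6% above and 14.3% below. Counts of all 10 genes were whole in every library. The transcript length implied by count and FPKM together was longer in exercise by 2.99% for Chpt1, 2.25% for Cept1 and 2.12% for Chka, and by less than 1% for each of the other genes. In Chpt1 it was 1746, 1797 and 1803 bases in sedentary and 1849, 1847 and 1809 in exercise libraries, and in Cept1 2310, 2313 and 2335 against 2416, 2310 and 2390. In Chka it was 2464, 2511 and 2491 bases in sedentary and 2537, 2528 and 2559 in exercise libraries. The ranges of Chpt1 and of Chka were separate and those of Cept1 overlapped.

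Ratios of 2 genes within a library do not depend on how libraries are scaled to each other. Etnk1 to Etnk2, in FPKM, was 0.114, 0.113 and 0.115 in sedentary and 0.145, 0.147 and 0.15 in exercise libraries. This ratio was higher in every exercise library than in any sedentary one, with a log2 difference of 0.37. Chka to Chkb was 0.925, 0.85 and 0.903 in sedentary and 0.713, 0.764 and 0.81 in exercise libraries, lower in exercise by 0.23 on the log2 scale (difference −0.23). Cept1 to Chpt1 was 0.34, 0.318 and 0.304 against 0.369, 0.37 and 0.358, a log2 difference of 0.19.

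Between the routes, Pemt to Pcyt1a was 14.7, 14.4 and 14.7 in sedentary and 16.4, 16.1 and 16.7 in exercise libraries, a log2 difference of 0.17. Pcyt1a to Pcyt2 was 0.0733, 0.0783 and 0.076 against 0.0695, 0.072 and 0.0736, and here the groups overlapped. By a two-sided exact permutation test, p was 0.1 for each of the other 4 ratios, the smallest that 3 against 3 libraries allow, and 0.2 for Pcyt1a to Pcyt2. Adjusted over the 5 ratios, these became 0.125 and 0.2, and this design cannot reach 0.05.

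**Figure D3:**
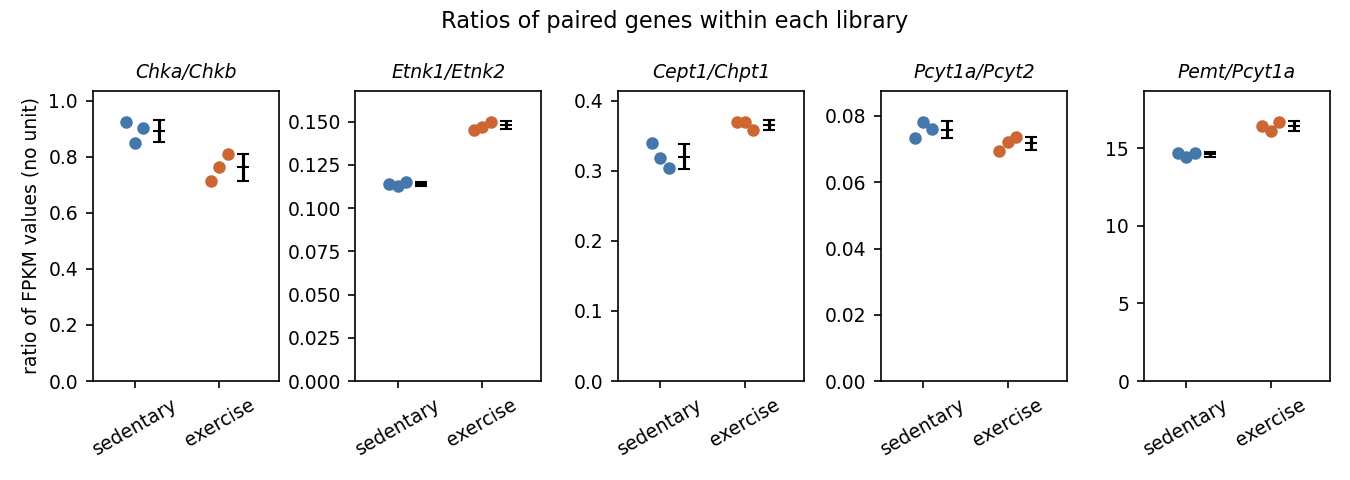
Ratio of FPKM values of 2 genes within each library, for 5 pairs. The pairs share a step or lie at matching steps, except Pemt to Pcyt1a, which sets the routes to phosphatidylcholine side by side. Points are libraries, and the bars beside them are mean and SD of 3. Sedentary and exercise points are separate in every panel except that of Pcyt1a to Pcyt2.

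Around the pathway, 7 lists of neighbouring genes held 128 genes, of which 124 were in the table and 110 were tested. Of these, 25 were called higher and 33 lower, with a median log2 fold change of −0.0022, again beside 38.1% called over all tested genes. The split depended on the scaling, with 43 higher and 20 lower with library totals only, 35 and 27 with totals that left out the 20 most abundant genes, 31 and 17 by limma on log2(FPKM + 1), and 45 and 14 by limma on log2(TPM + 1).

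Other genes of synthesis and remodelling had 2 of 12 tested members higher and 5 lower (median −0.11). Etnppl encodes the lyase that breaks down phosphoethanolamine, the product of the ethanolamine kinases. Its FPKM was 42, 38.94 and 41.1 in the sedentary and 73.94, 75.75 and 75.46 in the exercise libraries. This was the largest rise among the neighbours, 1.75-fold by TMM-scaled counts (log2 fold change 0.81, SE 0.031, edgeR adjusted p = 8.55e-27). Sgpl1, whose product releases phosphoethanolamine from sphingosine phosphate, rose 1.16-fold.

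In the same list Pisd, which makes phosphatidylethanolamine from phosphatidylserine in mitochondria, and Ptdss2, a phosphatidylserine synthase, fell 1.15-fold and 1.21-fold. The calls of Pisd, Ptdss2 and, of the next genes, Tmem86b ended in 2 of the 6 other scalings and units, and that of Lclat1 in 1. The acyltransferase genes Lpgat1 and Lclat1 fell 1.23-fold and 1.17-fold, and Tmem86b, which encodes a lysoplasmalogenase, fell 1.15-fold. Selenoi, the other ethanolamine phosphotransferase, averaged 9.92 FPKM in sedentary and 10.7 FPKM in exercise livers and was not called (log2 fold change 0.03, edgeR adjusted p = 0.542). Pcyt1b, the paralog of Pcyt1a, was below the tested range at 0.0367 FPKM in both groups.

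Genes of phospholipid breakdown had 4 of 24 tested members higher and 6 lower (median −0.07). Gpcpd1 hydrolyses glycerophosphocholine, a product of phosphatidylcholine breakdown, and releases choline. Its FPKM was 29.36, 29.47 and 30.51 in the sedentary and 16.75, 16.63 and 16.16 in the exercise libraries, with no overlap. It fell 1.90-fold (log2 fold change −0.93, SE 0.036, edgeR adjusted p = 1.33e-26). The lysosomal phospholipase gene Pla2g15 fell 1.45-fold and the phospholipase D gene Pld1 1.38-fold. Ddhd2, which encodes a phospholipase and lipase, rose 1.49-fold. Abhd12 and Pnpla7, lysophospholipase genes, fell by 0.24 and 0.12 on the log2 scale of TMM-scaled counts, but their FPKM overlapped between groups, and the calls ended in 2 and 3 of the 6 other scalings and units.

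Choline oxidation and methyl supply had 5 of 20 members higher and 8 lower (median −0.06). Bhmt uses betaine, made from choline, to remethylate homocysteine. Its FPKM was 1868.22, 1860.28 and 1888.79 in the sedentary and 1282.96, 1259.11 and 1260.94 in the exercise libraries. It fell 1.56-fold (log2 fold change −0.64, SE 0.018, edgeR adjusted p = 1.15e-32). Bhmt2 and Dmgdh, which acts on the product of Bhmt, fell 1.22-fold and 1.14-fold, and the latter was not called by limma on log2(TPM + 1) (adjusted p = 0.0935).

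Chdh, which encodes the enzyme that oxidises choline, rose 1.11-fold. Ahcy and Adk, which clear the by-products of methylation by enzymes such as Pemt, rose 1.11-fold and 1.09-fold, although counts of Ahcy were not whole in every library. Nnmt, another consumer of methyl groups, fell 1.6-fold.

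Transfer and export of phosphatidylcholine had 7 of 17 members higher and 2 lower (median 0.05). Abcb4 encodes the pump that moves phosphatidylcholine into bile. Its FPKM was 66.75, 69.52 and 67.82 in the sedentary and 83.64, 83.58 and 82.75 in the exercise libraries, and it rose 1.16-fold (edgeR adjusted p = 1.25e-09). Pltp, a plasma transfer protein for phospholipids, rose 1.43-fold, the hepatic lipase gene Lipc 1.17-fold, and the scramblase genes Tmem41b and Vmp1 1.17-fold and 1.09-fold. Mfsd2a, a transporter of lysophosphatidylcholine, fell 1.32-fold.

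Genes that supply diacylglycerol, the partner substrate of Cept1 and Chpt1, had 5 of 16 tested members higher and 5 lower (median 0.04). The 3 lipin genes, which encode phosphatidate phosphatases, moved apart. Lpin2 had FPKM values of 29.86, 30.41 and 30.8 in the sedentary and 43.5, 43.48 and 42.34 in the exercise libraries and rose 1.35-fold. Lpin1 had 15.45, 16.37 and 16.31 against 13.14, 12.49 and 12.46 FPKM and fell 1.34-fold. The low Lpin3 fell 1.6-fold, from 2.37 to 1.54 FPKM. Gpat4, Agpat1 and Plpp1, further enzymes of this branch, rose 1.15-fold, 1.26-fold and 1.23-fold, and Plpp1 was not called by DESeq2 (adjusted p = 0.0519).

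Transport of choline and ethanolamine had none of 6 tested members higher and 2 lower (median −0.03). Flvcr2 had a log2 fold change of −0.44 and was called in 3 of the 6 other scalings and units. The choline transporter gene Slc44a1 averaged 8.84 ± 0.0723 FPKM in sedentary and 9.05 ± 0.289 FPKM in exercise livers (SD, n = 3) and was not called.

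Regulators linked to the pathway had 2 of 15 members higher and 5 lower (median 0.01). Hnf4a, a hepatocyte transcription factor, rose 1.21-fold. Xbp1, a regulator of the endoplasmic reticulum, fell 1.27-fold, Srebf2, a sterol-responsive factor, 1.22-fold, and the low estrogen receptor gene Esr1 1.95-fold, from 2.45 to 1.29 FPKM. Nr1h3, which encodes the liver X receptor alpha, a known activator of Lpcat3, and Srebf1, a regulator of lipid synthesis, had log2 fold changes of −0.13 and −0.085. These were called in 2 and 1 of the 6 other scalings and units, and that of Srebf1 was 0.025 by limma on log2(TPM + 1).

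**Figure D4:**
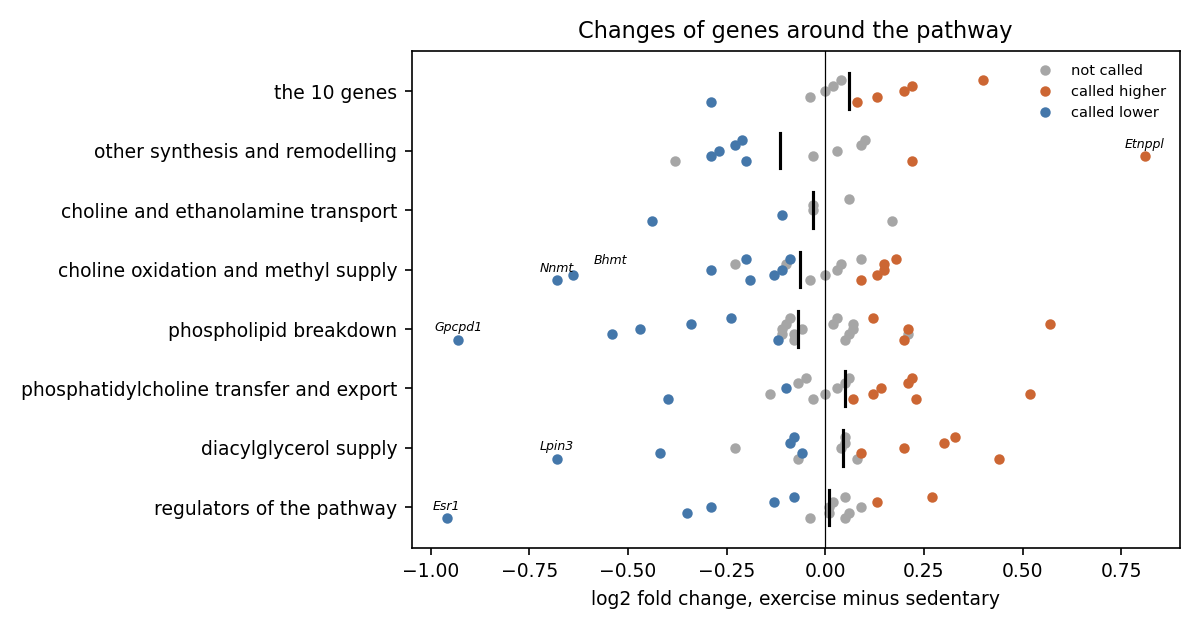
Log2 fold change (exercise minus sedentary, edgeR with TMM) of each tested gene in the 10-gene set and in 7 neighbouring lists. Orange points were called higher, blue points lower and grey points were not called; black bars are list medians. Etnppl lies farthest right at 0.81, and Esr1 at −0.96 and Gpcpd1 at −0.93 farthest left.

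Markers of some of the cell types that a liver sample can hold also differed between the groups. Over all tested genes 38.1% were called, 19.1% higher and 19.0% lower. Hepatocyte markers, 5 of 9 higher and 3 lower, summed to 71789 to 73223 FPKM in sedentary and 73256 to 73777 FPKM in exercise libraries. Macrophage markers, 8 of 10 lower, summed to 278 to 283 against 234 to 238 FPKM. Endothelial markers, 5 of 10 higher, summed to 104.66 to 104.96 against 117 to 125 FPKM. Stellate and fibroblast markers, 5 of 9 higher and 1 lower, summed to 85.5 to 88.5 against 108.94 to 109.82 FPKM. Most of the stellate and fibroblast sums was Dcn, at a mean of 62.6 FPKM in sedentary and 79.9 FPKM in exercise livers. The gene called lower in that list was Col3a1, from 5.22 to 4.29 FPKM.

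Bile duct markers, 1 of 3 tested lower, summed to 87.4 to 89.5 against 57.3 to 60.6 FPKM. The called gene was Spp1, with a mean of 60.7 FPKM in sedentary and 30.5 FPKM in exercise livers, while Anxa4, the next most abundant, averaged 23.5 and 24.8 FPKM and was not called. Erythroid markers, 4 of 5 lower, summed to 381 to 393 against 335 to 352 FPKM. Pancreatic acinar markers, both of 2 tested lower, summed to 17.6 to 18.4 against 8.17 to 8.68 FPKM. Most of these sums was Cela1, at a mean of 10.9 FPKM in sedentary and 7.89 FPKM in exercise livers. The other tested gene, Amy2a5, averaged 2.45 and 0 FPKM. At 0 in all exercise libraries were 9 of the 11 acinar markers in the table. Neutrophil markers, with 0 of 2 tested genes called, summed to 10.6 to 17.1 against 8.5 to 12 FPKM. Lymphocyte markers, with 0 of 1, summed to 4.16 to 5.07 against 4.07 to 4.73 FPKM, and adipose and muscle markers, with 0 of 1, to 11.3 to 13.5 against 11.7 to 15.2 FPKM. Of the markers, none was at 0 in all 6 libraries. The part of these cell types in the changes of the 10 genes was not tested.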

How the data were processed

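Liver RNA was sequenced in 6 libraries, 3 per group, whose table columns were matched through the labels' descriptions and grouped by the treatment label. Per the labels' protocols, low-quality, undetermined and short reads were removed. The submitters' processing notes name the build GRCm38.p6, cutadapt, featureCounts and MultiQC; versions, aligner, annotation and strand setting: not given in the sources used here. Per the file headers, the authors deposited estimated counts, FPKM and TPM for each gene and library. Their 6 columns of averages were not used.

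The estimated counts, as deposited by the authors, were rounded and tested in edgeR 4.0.16 (R 4.3.3) with TMM scaling and the two-sided quasi-likelihood F test, no covariates, for genes averaging 1 FPKM or more. P-values were adjusted by Benjamini-Hochberg over all 10266. The standard error is the size of the log2 fold change over the square root of F. Alternatives used limma 3.58.1 and DESeq2 1.42.0. The edgeR, DESeq2 and limma fits were tested on data simulated with the spread and totals of these libraries and balanced changes. For that reason the simulation cannot speak to variation beyond these libraries or to the choice of scaling. The implied transcript length is a count divided by its FPKM and by the library total, in bases. Gene positions and promoters are from RefSeq and exon overlaps from GENCODE M21, both on GRCm38. Fold changes of named genes are from TMM-scaled counts. Neighbours named are up to 6 called genes of each list with the smallest p; Ptdss2, Chdh, Selenoi, Pcyt1b, Slc44a1 and Dram2 were added after values were seen. The result of 1 gene that this rule would name is not reported here. The members and lists were chosen with earlier results of these data known.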

Additional observations from a re-analysis of the deposited data

How the results depend on the processing

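Cept1, Chpt1, Chkb, Pemt and Etnk2 kept their direction in all 18 alternatives. Their calls ended only with the assumed variation of 0.1 and, except for Cept1, in the test against a 1.2-fold change. Genes called among the 10 were 5 to 6 with 1 library left out, 1 against a 1.2-fold change, 0 with the assumed variation and 5 to 8 in the other alternatives. Over all tested genes these counts were 3402 to 3491, 653 and 176, and 2512 by DESeq2. For the 110 neighbours they were 51 to 54, 12 and 3. The highest count among the 10, 8, came with library totals only, where 46.2% of all tested genes were called. In the rest of those other alternatives, 24.3% to 43.8% of the genes tested in each were called. The median log2 fold change of the 10 genes was 0.057 to 0.082 with 1 library left out, 0.14 with library totals only, 0.099 with totals that left out the 20 most abundant genes, 0.13 and 0.14 by limma on log2(FPKM + 1) and log2(FPKM + 0.1), and 0.17 by limma on log2(TPM + 1). The median of all genes moved too in these scalings, to between 0.0341 and 0.0956.

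Signs turned for genes that were not called. Chka had log2 fold changes of 0.075 with library totals only, 0.032 with totals that left out the 20 most abundant genes, 0.0064 with no filter on low genes, 0.043 and 0.045 by limma on log2(FPKM + 1) and log2(FPKM + 0.1), 0.077 by limma on log2(TPM + 1), and −0.025 to 0.012 with 1 library left out. Pcyt1a had 0.038 with library totals only, 0.034 and 0.036 in the limma fits on FPKM and 0.068 in that on TPM. Lpcat3 had −0.013 to 0.075 with 1 library left out. Srebf1, which was called, had 0.025 by limma on log2(TPM + 1). The cause was not tested. The log2 differences of the 5 ratios kept their sign in all 8 alternatives and moved by less than the larger of the 2 groups' SDs; that of Cept1 to Chpt1 ran from 0.15 to 0.23, where the log2 SD was 0.0811 in sedentary and 0.0266 in exercise libraries.

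No sign was seen that replicate numbers pair the libraries. Deviations of same-numbered libraries had correlations of −0.0365, −0.0252 and −0.03, and no library correlated best with its own number. Correlations over all pairs across groups ran from −0.0365 to 0.0384. Spread within groups was near counting noise for genes under 2000 reads, so this check could miss a pairing. With the number as a replicate block, 5 of the 10 genes, 57 neighbours and 3846 of all genes were called, and Etnk1 was not among them (adjusted p = 0.0565).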
